A study of Mus musculus with 9 samples.

Results

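The genes described here are the matrix metalloproteinases (Mmp), the metalloproteases with a disintegrin domain (Adam), their secreted relatives with thrombospondin motifs (Adamts) and the tissue inhibitors of metalloproteinases (Timp). They were chosen by symbol alone, with no measured value, as every gene named Mmp, Adam, Adamts or Timp followed by a number. This gave 61 of the 27207 genes in the table, namely 18 Mmp, 4 Timp, 20 Adam and 19 Adamts genes. Of these, 53 were taken as matrix-acting or otherwise somatic, and 8 Adam genes known mainly from testis and epididymis were kept apart. A further 5 Mmp genes (Mmp1a, Mmp1b, Mmp7, Mmp10 and Mmp20) and 16 testis-type Adam genes are not analysed here.

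The samples were entire lungs taken from mouse fetuses late in gestation, at E18.5, and each of the 9 RNA-seq libraries belonged to 1 of 3 groups of 3. The wild type lungs were WT_265_1, WT_268_1 and WT_549_2. The weak CKO lungs, MUT_W_265_2, MUT_W_268_3 and MUT_W_549_3, were hypoplastic. The strong CKO lungs, MUT_S_265_5, MUT_S_268_4 and MUT_S_860_3, were hypoplastic with haemorrhages spread through the parenchyma. Both CKO groups carried Tbx4-rtTA, Tet-O-Cre and Dnmt1-D/D, so that Dnmt1, which encodes the maintenance DNA methyltransferase, was deleted by a Cre that depends on an rtTA driver used to target lung mesenchyme. The weak and strong groups therefore share 1 genotype and were told apart by their appearance. Epithelium, endothelium and blood cells of the same lung are also in each library. Per library values below are given in the order in which the libraries are named above.

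Mmp enzymes cleave collagens, elastin, laminins and many cell surface proteins, and are made as inactive precursors. Adam proteases sit in the plasma membrane and release growth factors and receptors from it, while several Adam genes encode adhesion proteins without a working protease site. Adamts enzymes are secreted and act on proteoglycans such as versican and aggrecan, on procollagen and on microfibril proteins. Timp proteins bind and block Mmp enzymes, and Timp3, which is held in the matrix, also blocks some Adam and Adamts enzymes. In the developing lung these proteins take part in remodelling the matrix around branching airways and growing vessels.

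Column totals ran from 25607595 to 33156732 counts. Levels are given as CPM, counts scaled to each library's total and its TMM normalisation factor. Dnmt1 had a log2 change of −0.51 in weak CKO (adjusted p = 0.0727, edgeR) and −0.53 in strong CKO (adjusted p = 0.0433), and the strong CKO call ended without WT_268_1 (−0.36), WT_549_2 (−0.54), MUT_W_268_3 (−0.52), MUT_S_265_5 (−0.46) or MUT_S_860_3 (−0.49). The lung mesenchyme markers Tbx4, Tbx5, Tcf21, Wnt2, Pdgfra and Col1a1 were present in every group, with summed levels of 2099 to 2498 CPM in wild type, 1941 to 2204 in weak CKO and 1982 to 2187 in strong CKO. This sum is carried by Col1a1, with group means of 1216, 1381 and 1534 CPM and no call, while 4 of the 6 markers were called lower in weak CKO and 5 in strong CKO, among them Wnt2 (log2 −1.11 and −1.50) and Tbx4 (−0.69 and −0.96). Summed endothelial markers were 2105 to 2716, 1878 to 1942 and 1411 to 1756 CPM in these groups, and 2 and 6 of 6 were called lower in weak and strong CKO. Alveolar epithelium markers summed to 11080 to 16320, 11620 to 12220 and 9391 to 10750 CPM, with 3 of 5 called lower in strong CKO. Smooth muscle markers summed to 202 to 306, 334 to 447 and 347 to 577 CPM, with 1 and 2 of 4 called higher. Airway epithelium markers summed to 943 to 1531, 2084 to 2923 and 2198 to 3645 CPM, with 3 of 4 called higher in each. Erythroid markers summed to 3947 to 7395, 3775 to 4391 and 6759 to 12680 CPM. Macrophage markers summed to 174 to 242, 303 to 370 and 300 to 381 CPM, with 5 and 6 of 8 called higher, and neutrophil markers to 24.0 to 65.3, 18.3 to 32.1 and 17.95 to 29.7 CPM, with 1 of 7 called lower in each. No marker in these lists was at 0 in all libraries. The part these cell types play in the results below was not tested, and in whole lung fewer cells of a type cannot be told apart from less RNA per cell.

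Among the 61 genes, the Adamts family held most of the change. Its summed level was 1411 to 1515 CPM in wild type, 959 to 1027 CPM in weak CKO and 796 to 925 CPM in strong CKO, with no overlap between wild type and either CKO group. The group means were 1478 ± 57.9, 996 ± 34.2 and 873 ± 67.6 CPM (SD, n = 3 each), so that weak CKO held 67.4% and strong CKO 59.1% of the wild type level. With 3 libraries against 3, an exact two-sided permutation test cannot give a p below 0.1, so no test is attached to these sums. Adamts1, Adamts10, Adamts17 and Adamts9 made up 73.7% of the wild type Adamts sum of counts, which longer transcripts weigh more, and all of them were lower in both CKO groups. The summed Mmp level was 700 ± 69.3 CPM in wild type, 708 ± 3.68 in weak CKO and 709 ± 31.0 in strong CKO, and the summed Adam level was 893 ± 43.7, 900.1 ± 9.28 and 873 ± 39.1 CPM. Timp sums were 965 ± 104, 866 ± 53.5 and 803 ± 47.5 CPM, and those of strong CKO (748 to 834 CPM, 83.2% of wild type) lay below those of wild type (848.5 to 1048 CPM). In weak and strong CKO, the fall of the Adamts sum ran beside lower calls for 4 and 5 of 6 lung mesenchyme markers. Of 6 endothelial markers, 2 and 6 were called lower. The summed mesenchyme markers, carried by Col1a1, overlapped wild type, and the smooth muscle and airway epithelium sums lay above it. The part of these cell types in the Adamts fall was not tested.

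**Figure D1:**
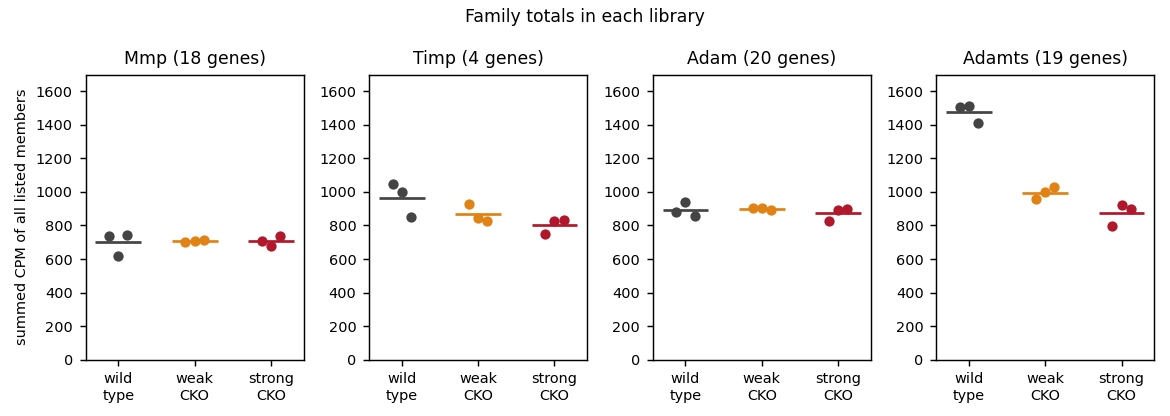
Summed level of all listed Mmp, Timp, Adam and Adamts genes in each library (CPM, vertical axis from 0), by group; points are libraries and lines are group means. The Adamts sums of all 6 CKO libraries lie between 796 and 1027 CPM, below the 1411 to 1515 CPM of wild type, while the Mmp and Adam sums of both CKO groups overlap wild type and the Timp sums overlap it in weak CKO only.

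Of the 55 members with enough counts to be tested, 6 were higher and 10 lower in weak CKO, or 29.1%, where 14.5% of all 19374 tested genes were called (9.09% higher and 5.38% lower). In strong CKO 7 were higher and 11 lower, or 32.7%, against 25.6% of all tested genes (14.6% higher and 11% lower). In weak CKO 9 of the 55 members had all libraries above and 10 all below wild type, beside 31.4% of all tested genes in either direction, and in strong CKO 10 and 12 did, beside 41.7%, so the members' shares without overlap were near those of all genes. All called members were among them. Both comparisons use the same wild type libraries. Of the lower calls in weak CKO, 9 were of matrix-acting members, and this count was 5 without WT_268_1 or without MUT_W_265_2. Lower calls among all genes went from 1042 to 794 without WT_268_1 and to 419 without MUT_W_265_2. The called members were concentrated in the Adamts family, where 5 of 18 tested genes were higher and 9 lower in each comparison. The median Adamts log2 change was −0.35 in weak and −0.32 in strong CKO, beside −0.0077 and −0.000997 for all genes. Among the 37 tested Mmp, Timp and Adam genes, 2 were called in weak CKO and 4 in strong CKO, or 5.41% and 10.8%, shares below those of all genes. Mmp3 and Adamts13 passed the count filter through the CKO libraries alone, so their place among the tested genes already reflects a difference. The 6 members below the filter were Mmp13, Mmp21, Mmp24, Mmp27, Adamts16 and Adam3, each under 1 CPM in every library.

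**Figure D2:**
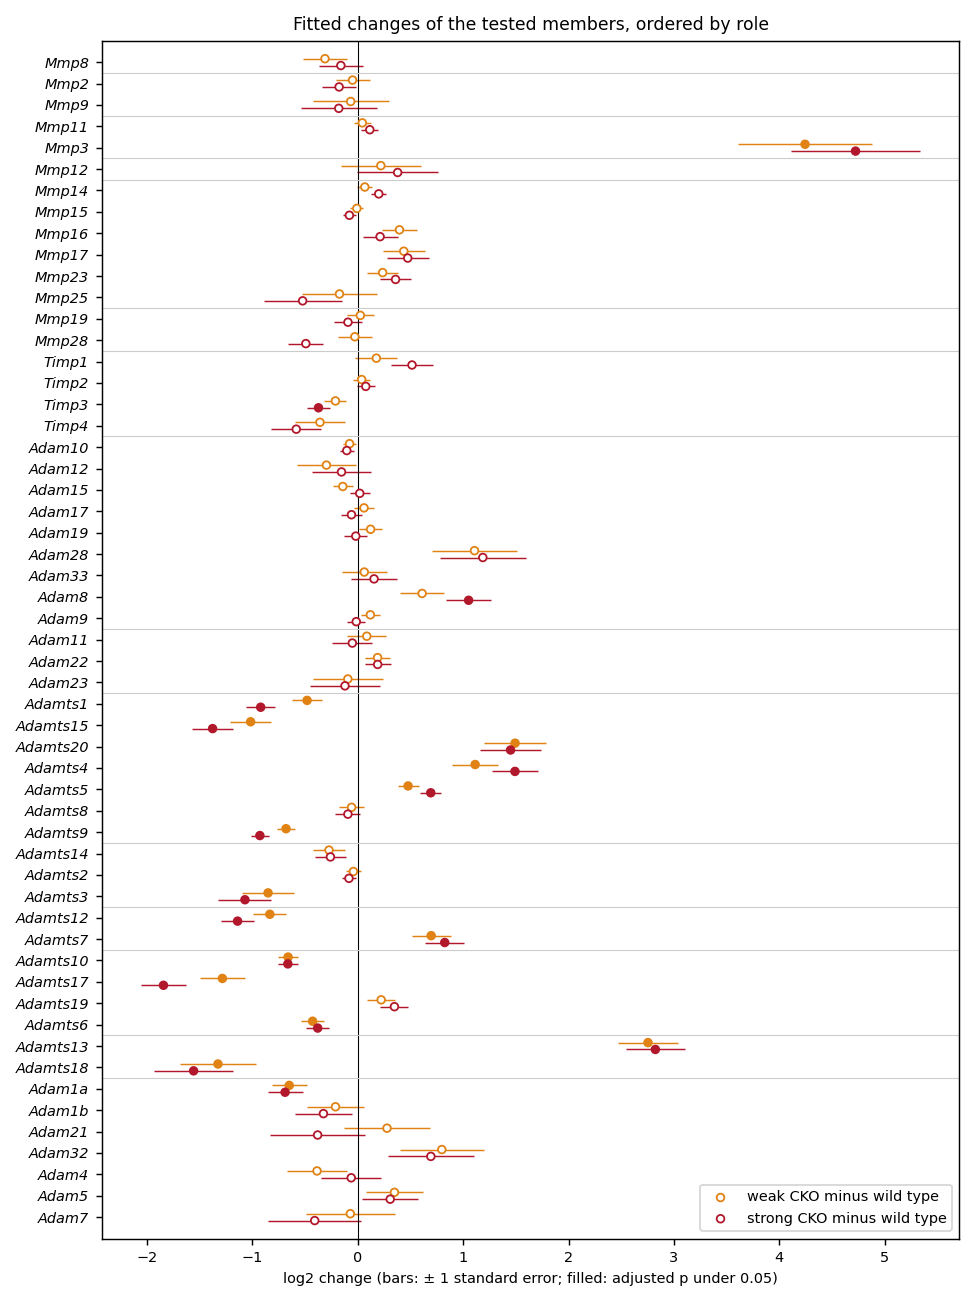
Fitted log2 change (horizontal axis) of each of the 55 tested members in weak and strong CKO against wild type, ordered by role, with bars of 1 standard error; filled points have an adjusted p under 0.05. Of the 18 Adamts genes, 14 are filled in each comparison, from −1.84 for Adamts17 to 2.82 for Adamts13 in strong CKO, while most Mmp, Timp and Adam genes are open and near 0.

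Sequences are shown for the starts of the 3 members with the largest fitted rises, averaged over both comparisons (Mmp3, Adamts13 and Adamts20) and for Adamts17, which had the largest fall, because CG pairs are the sites that Dnmt1 keeps methylated. Each is the 250 bases before the RefSeq start in GRCm38.p6, on the gene's strand, 5′ to 3′, with CG pairs in capitals.
Mmp3: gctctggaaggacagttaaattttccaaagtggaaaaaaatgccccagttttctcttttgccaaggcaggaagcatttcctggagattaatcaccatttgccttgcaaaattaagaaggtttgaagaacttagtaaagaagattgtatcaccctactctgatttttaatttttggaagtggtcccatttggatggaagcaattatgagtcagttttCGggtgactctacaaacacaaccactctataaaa
Adamts13: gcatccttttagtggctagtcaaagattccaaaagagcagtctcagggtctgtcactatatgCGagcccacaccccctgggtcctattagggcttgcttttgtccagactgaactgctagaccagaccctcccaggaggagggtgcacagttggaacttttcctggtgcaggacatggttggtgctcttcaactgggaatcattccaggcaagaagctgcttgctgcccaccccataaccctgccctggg
Adamts20: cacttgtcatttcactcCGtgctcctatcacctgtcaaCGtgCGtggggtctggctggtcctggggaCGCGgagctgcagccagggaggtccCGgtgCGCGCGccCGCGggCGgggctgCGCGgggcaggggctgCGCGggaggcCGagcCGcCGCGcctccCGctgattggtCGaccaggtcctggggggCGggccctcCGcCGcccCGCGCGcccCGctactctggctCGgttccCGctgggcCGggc
Adamts17: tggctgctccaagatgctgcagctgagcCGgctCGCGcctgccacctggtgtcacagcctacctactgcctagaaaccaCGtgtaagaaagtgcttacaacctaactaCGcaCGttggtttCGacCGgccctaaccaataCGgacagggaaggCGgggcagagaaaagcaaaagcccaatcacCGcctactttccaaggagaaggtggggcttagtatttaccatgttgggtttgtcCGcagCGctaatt
The windows are chr9:7445572-7445821 (plus strand) for Mmp3, chr2:26973166-26973415 (plus) for Adamts13, chr15:94404351-94404600 (minus) for Adamts20 and chr7:66839485-66839734 (plus) for Adamts17. Adamts20 has an upstream GENCODE start as well, and its window lies within the annotated gene. Mmp3 and Adamts13 held 1 CG each. Of the 32851 RefSeq windows of this length, 18.8% held at most 1, and the median was 6. Adamts20 held 32, a number reached by 4.58% of windows, and Adamts17 held 13, reached by 31.5%. The members that rose most thus differed widely in CG content. DNA methylation was not measured in these samples.

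Windows were found for 37 of the 61 members, 41 windows in all. The pattern TGANTCA, with any base at N, is wider than the AP-1 consensus that it contains. It reads the same on both strands, was searched as that single pattern, and occurred in 4 of the 41 and in 6.75% of all windows. These are counts of the pattern, not of AP-1 sites. The matches lay 46 bases before the start of Mmp3, 35 before Mmp13, 44 before the second start of Mmp12 and 131 before 1 start of Adam19. Of these genes, Mmp3 was called, Mmp12 and Adam19 were tested and not called, and Mmp13 was not tested.

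In wild type lung, levels between genes were compared as CPM per kilobase of merged exons. Timp3 was highest at 93.8 ± 10.4 (SD, n = 3), followed by the gelatinase Mmp2 at 77.6 ± 18.8, the sheddase Adam10 at 60.7 ± 2.35, Adamts1 at 58.2 ± 11.4 and Timp2 at 49.8 ± 5.93. The ranges of each of these neighbours in the order overlapped, so their order is not resolved by 3 libraries. Timp2 did not overlap Mmp14 (41.9 ± 1.26), which was followed by Adam9 (37.0 ± 3.94), Adamts10 (35.8 ± 3.87), Adamts17 (31.6 ± 2.04) and Adam17 (24.7 ± 3.42). In strong CKO, Adamts1 stood at 30.8 ± 2.91, Adamts10 at 22.6 ± 1.58 and Adamts17 at 8.81 ± 2.93, while Mmp14 stood at 48.1 ± 4.54 and Adam10 at 56.5 ± 3.50.

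**Figure D3:**
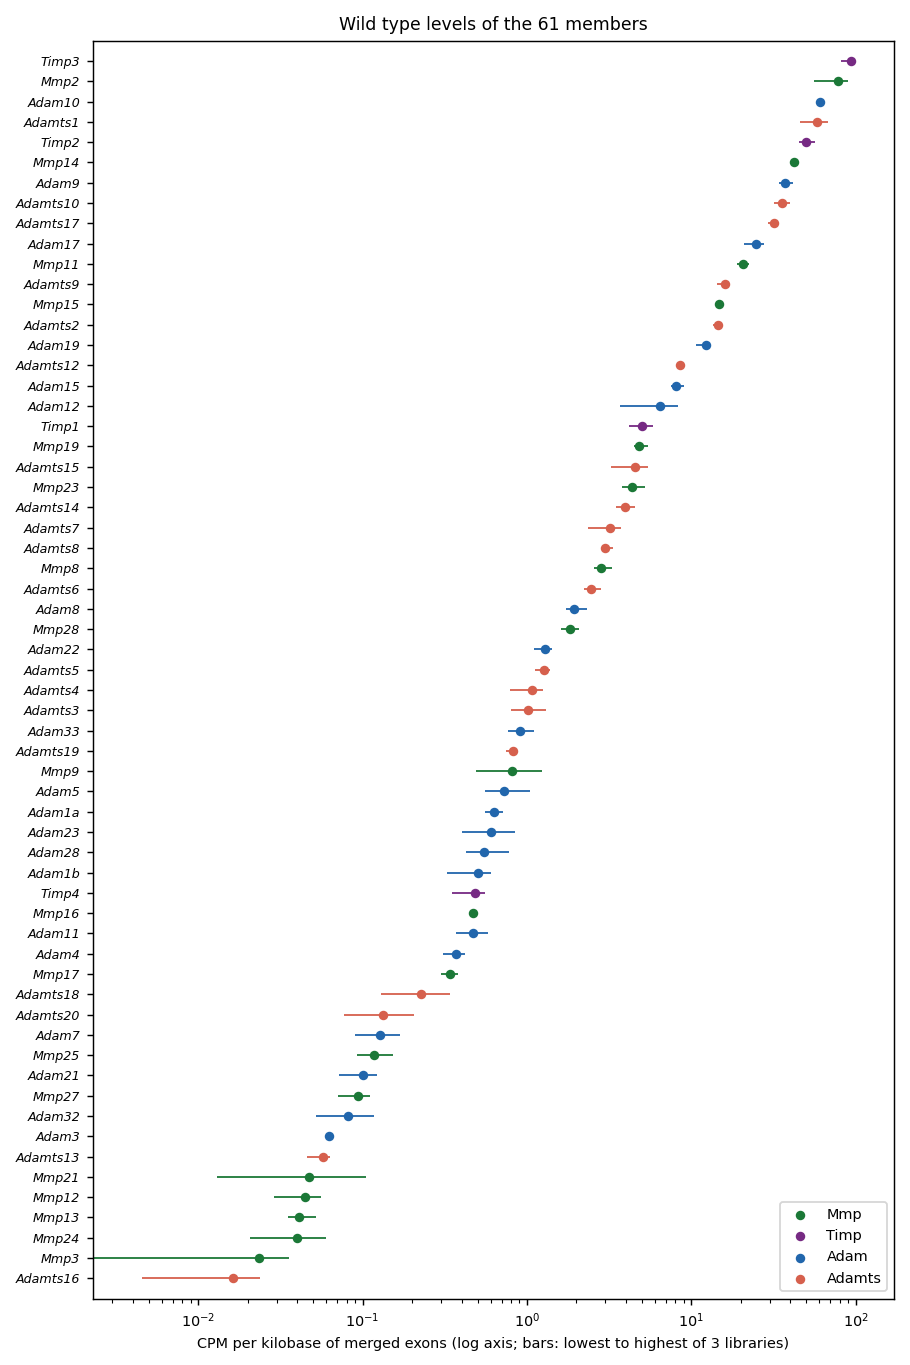
Wild type level of each of the 61 members as CPM per kilobase of merged exons (horizontal log axis), ordered by the mean, with bars from the lowest to the highest of 3 libraries; the bar of Mmp3 runs off the axis because 1 library has 0 counts. Timp3 stands highest at 93.8 and Mmp2 next at 77.6, with overlapping ranges, and Adamts genes occupy ranks from 4 (Adamts1) to 61 (Adamts16).

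The fibrillin-associated group holds Adamts10, Adamts17, Adamts6 and Adamts19, of which Adamts10 and Adamts17 are known from inherited disorders of microfibrils. In each CKO group 3 of these 4 were lower and none was higher. Of all tested genes, 5.38% were lower in weak CKO and 11% in strong CKO. The group has few genes and was chosen with earlier results known, so no enrichment is read from it. Adamts17 (chr7:66839735-67153171) measured 257, 252 and 228 CPM in wild type, 96.4, 91.2 and 115 CPM in weak CKO and 46.6, 92.0 and 66.5 CPM in strong CKO. All CKO libraries were far below wild type, and MUT_S_265_5 was the lowest. Its log2 change was −1.28 ± 0.21 (SE) in weak CKO (adjusted p = 0.00534, edgeR) and −1.84 ± 0.21 in strong CKO (adjusted p = 0.000573), a level 2.44-fold and 3.59-fold lower. Adamts10 (chr17:33524204-33553782) had 263, 296 and 327 CPM in wild type, 168, 190.5 and 202 CPM in weak CKO and 174, 186 and 200.0 CPM in strong CKO. Its weak and strong CKO libraries covered the same range and stayed below all wild type libraries, with log2 changes of −0.66 ± 0.10 in both (adjusted p = 0.00166 and 0.000991, edgeR).

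Adamts6 (chr13:104287835-104496695), the closest relative of Adamts10, measured 17.7, 21.95 and 17.3 CPM in wild type, 13.4, 15.4 and 13.6 CPM in weak CKO and 13.96, 15.4 and 14.5 CPM in strong CKO. The gap to wild type was narrow, with log2 changes of −0.43 ± 0.11 (adjusted p = 0.0276, edgeR) and −0.38 ± 0.11 (adjusted p = 0.0283). The weak CKO call ended without WT_268_1 (−0.31), MUT_W_265_2 (−0.39) or MUT_W_549_3 (−0.40). The strong CKO call ended without WT_268_1 (−0.26), MUT_S_265_5 (−0.34) or MUT_S_860_3 (−0.37), and on the log2(RPKM + 1) scale, which compresses low levels, the values were −0.13 and −0.11. Adamts19 was not called, with 10.46, 12.3 and 11.8 CPM in wild type, 14.3, 11.6 and 14.4 CPM in weak CKO and 12.4, 15.1 and 16.5 CPM in strong CKO (log2 0.22 and 0.35, adjusted p = 0.307 and 0.0792, edgeR). Without MUT_S_265_5 the latter was called (0.46).

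The proteoglycan-cleaving group was divided, with 3 of 7 higher and 3 lower in each comparison. Of all tested genes, 9.09% were higher and 5.38% lower in weak CKO, and 14.6% and 11% in strong CKO. The highest of the 7 per kilobase in wild type, Adamts1, Adamts9 and Adamts15, fell. Adamts1 (chr16:85793827-85803113), which cleaves versican and aggrecan, measured 361, 322 and 243 CPM in wild type, 228, 239 and 197 CPM in weak CKO and 156, 181 and 153 CPM in strong CKO. The 3 groups formed 3 separate ranges, with WT_549_2 close to the weak CKO libraries. Log2 changes were −0.48 ± 0.14 in weak (adjusted p = 0.0460, edgeR) and −0.92 ± 0.14 in strong CKO (adjusted p = 0.00144). The weak CKO call rested on having all libraries: it ended when any library except WT_549_2 was left out (−0.35 without WT_265_1 to −0.54 without MUT_W_268_3), and with only the groups compared (−0.47).

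Adamts9 (chr6:92772699-92943492), another versican-cleaving enzyme, had 246, 257 and 216 CPM in wild type, 146, 142.5 and 160.3 CPM in weak CKO and 115, 131 and 131 CPM in strong CKO. Each group again lay below the one before it. Its log2 changes were −0.68 ± 0.084 (adjusted p = 0.000611, edgeR) and −0.93 ± 0.085 (adjusted p = 6.4e-05), the latter the smallest adjusted p of any member in strong CKO. Adamts15 (chr9:30899155-30922452) had 56.3, 33.8 and 51.2 CPM in wild type, 20.1, 21.8 and 28.0 CPM in weak CKO and 15.9, 19.5 and 18.97 CPM in strong CKO. Its log2 changes were −1.02 ± 0.19 (adjusted p = 0.00870, edgeR) and −1.38 ± 0.19 (adjusted p = 0.00114). An antisense gene, A730049H05Rik, covers 9.18% of the Adamts9 exons, and whether the counting took strand into account is not given.

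The other called genes of this group were higher. Adamts4 and Adamts5 are the aggrecanases known from cartilage. Adamts4 (chr1:171250421-171260637) measured 3.77, 6.00 and 5.60 CPM in wild type, 12.3, 11.9 and 9.17 CPM in weak CKO and 16.9, 10.6 and 15.8 CPM in strong CKO, with log2 changes of 1.11 ± 0.22 (adjusted p = 0.00923, edgeR) and 1.49 ± 0.22 (adjusted p = 0.00114). Adamts5 (chr16:85856173-85901828) rose from 14.8, 12.01 and 14.1 CPM to 19.2, 20.2 and 17.5 CPM in weak and 23.0, 22.5 and 20.6 CPM in strong CKO (log2 0.48 ± 0.10 and 0.69 ± 0.10, adjusted p = 0.0119 and 0.000974, edgeR). For both genes all CKO libraries lay above wild type. The weak and strong CKO ranges overlapped for Adamts4 and not for Adamts5. The weak CKO call of Adamts5 ended without MUT_W_268_3 (0.43). Adamts20 (chr15:94270163-94465418), best known from pigment cell development, measured 0.697, 1.84 and 1.06 CPM in wild type, 3.51, 3.19 and 3.48 CPM in weak CKO and 3.198, 2.92 and 3.74 CPM in strong CKO. The lowest CKO library was well above the highest wild type library, with log2 changes of 1.49 ± 0.29 (adjusted p = 0.00818, edgeR) and 1.45 ± 0.29 (adjusted p = 0.00529). Of this group only Adamts8 was not called in either comparison (log2 −0.06 and −0.09, adjusted p = 0.795 and 0.602, edgeR).

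Neighbouring members could differ in direction. Adamts1 and Adamts5 lie 53.1 kb apart on chromosome 16 on the same strand, and the first was lower and the second higher in both CKO groups. Adamts15 and Adamts8 lie next to each other on chromosome 9 on opposite strands, and the first was lower while the second was not called.

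Within the pair known to cleave cartilage oligomeric matrix protein, Adamts7 and Adamts12, directions were again opposite. Adamts12 (chr15:11064790-11349231) measured 98.2, 88.9 and 90.7 CPM in wild type, 49.0, 50.3 and 56.6 CPM in weak CKO and 30.7, 51.9 and 43.4 CPM in strong CKO. Its log2 changes were −0.83 ± 0.16 (adjusted p = 0.00808, edgeR) and −1.14 ± 0.16 (adjusted p = 0.000977). Adamts7 (chr9:90163069-90208071) had 14.8, 22.3 and 23.6 CPM in wild type, 27.0, 34.2 and 37.3 CPM in weak CKO and 30.5, 40.4 and 36.7 CPM in strong CKO. No CKO library of Adamts7 reached down to the wild type range, and no CKO library of Adamts12 reached up to it. The Adamts7 log2 changes were 0.70 ± 0.19 (adjusted p = 0.0353, edgeR) and 0.83 ± 0.19 (adjusted p = 0.0106). Its weak CKO call ended without WT_265_1 (0.52), WT_268_1 (0.77), MUT_W_268_3 (0.67), MUT_W_549_3 (0.60) or MUT_S_860_3 (0.70). Tbc1d2b, on the opposite strand, covers 1.94% of the Adamts7 exons.

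The procollagen group trims the amino end of fibrillar procollagens and held 1 called gene of 3. Of all tested genes, 14.5% were called in weak CKO and 25.6% in strong CKO. Adamts3 (chr5:89677087-89883334), also known for activating the lymphatic growth factor Vegfc, measured 4.36, 7.07 and 5.19 CPM in wild type, 2.59, 2.74 and 3.88 CPM in weak CKO and 1.96, 3.21 and 2.74 CPM in strong CKO. Its log2 changes were −0.85 ± 0.25 (adjusted p = 0.0452, edgeR) and −1.07 ± 0.25 (adjusted p = 0.0112). The weak CKO call ended without WT_268_1 (−0.64), WT_549_2 (−0.90), MUT_W_265_2 (−0.74), MUT_W_268_3 (−0.77), MUT_S_268_4 (−0.85) or MUT_S_860_3 (−0.85), and the strong CKO call without MUT_S_265_5 (−0.89). Adamts2, the main procollagen I enzyme and the highest of the 3 per kilobase, measured 126, 146 and 136 CPM in wild type, 129.8, 135 and 132 CPM in weak CKO and 127, 121 and 137.5 CPM in strong CKO. Its groups overlapped, with log2 changes of −0.04 ± 0.07 and −0.08 ± 0.07 (adjusted p = 0.752 and 0.416, edgeR). Adamts14 had log2 changes of −0.27 and −0.26 without a call (adjusted p = 0.265 and 0.234, edgeR).

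Of the remaining Adamts genes, Adamts13 had the largest rise and Adamts18 fell. Adamts13 (chr2:26973416-27009628), which cleaves von Willebrand factor in plasma, measured 0.314, 0.226 and 0.311 CPM in wild type, 2.55, 1.70 and 1.57 CPM in weak CKO and 2.03, 1.89 and 2.17 CPM in strong CKO. Every CKO library was several times above every wild type library, and the log2 changes were 2.75 ± 0.28 (adjusted p = 0.000169, edgeR) and 2.82 ± 0.28 (adjusted p = 9.9e-05). Adamts13 had 9, 7 and 10 counts in wild type and, as stated above, passed the count filter through the CKO libraries alone. Adamts18 (chr8:113697126-113848738) measured 1.33, 3.45 and 2.15 CPM in wild type, 0.681, 1.25 and 0.814 CPM in weak CKO and 0.828, 0.891 and 0.635 CPM in strong CKO (log2 −1.33 ± 0.36 and −1.56 ± 0.37, adjusted p = 0.0348 and 0.0119, edgeR). WT_265_1 came close to the CKO libraries. The weak CKO call ended without WT_268_1 (−0.92), WT_549_2 (−1.38), MUT_W_265_2 (−1.16), MUT_W_549_3 (−1.25) or MUT_S_265_5 (−1.32), and the strong CKO call without MUT_S_860_3 (−1.42).

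On the log2(RPKM + 1) scale the low Adamts genes kept their direction with smaller values. Adamts13 then changed by 0.23 and 0.24, Adamts20 by 0.17 and 0.16, Adamts4 by 0.40 and 0.58, Adamts5 by 0.28 and 0.42, Adamts7 by 0.32 and 0.39, Adamts3 by −0.22 and −0.27 and Adamts18 by −0.08 and −0.08 in weak and strong CKO. Of these, Adamts13, Adamts20, Adamts4 and Adamts5 were still called in both comparisons.

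**Figure D4:**
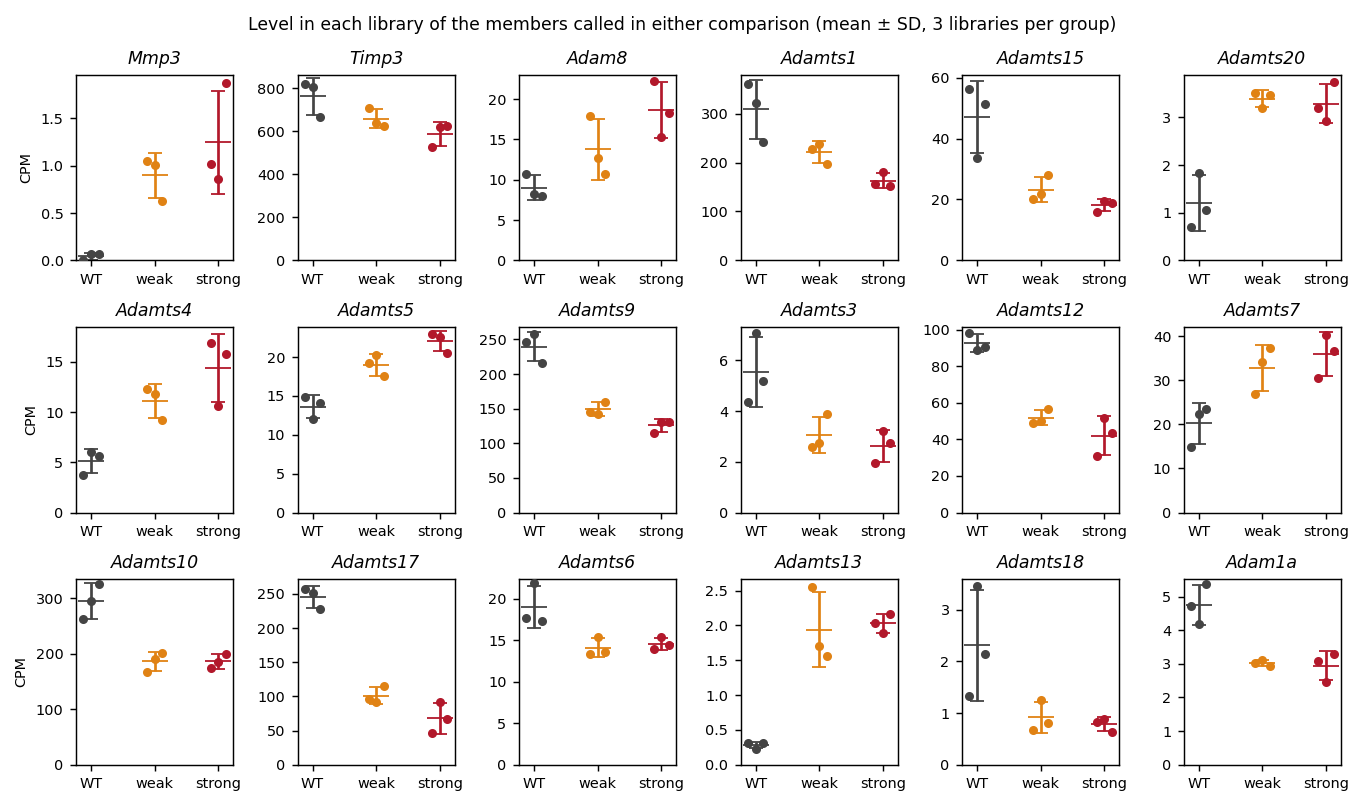
CPM in each library (points; vertical axes start at 0 and differ between panels) of the 18 members called in weak or strong CKO against wild type, with the mean and SD of 3 libraries per group. Adamts17 falls from above 227 CPM in wild type to 115 CPM or less in every CKO library, and Adamts13 rises from 0.314 CPM or less to 1.57 CPM or more.

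Of 14 tested Mmp genes, 1 was called, in both comparisons, where 14.5% and 25.6% of all tested genes were called. Mmp3 (stromelysin-1, chr9:7445822-7455975) degrades proteoglycans and basement membrane and activates other Mmp precursors. It measured 0, 0.0646 and 0.0622 CPM in wild type, 1.06, 1.01 and 0.626 CPM in weak CKO and 1.02, 0.856 and 1.87 CPM in strong CKO. These stand for 4 counts over the wild type libraries, 85 over weak CKO and 107 over strong CKO, a ratio of CPM of 20.6 (95% counting interval 7.74 to 77.2) and 29.0 (11 to 109), where the interval covers counting error only. Mmp3 was thus nearly undetected in wild type and low in both CKO groups. Its fitted log2 changes of 4.24 ± 0.63 (adjusted p = 0.00153, edgeR) and 4.72 ± 0.62 (adjusted p = 0.000447) depend on few wild type counts, and on the log2(RPKM + 1) scale they were 0.51 and 0.67. Other Mmp genes of its cluster on chromosome 9 were not called: Mmp8, the neutrophil collagenase, had 7.95, 6.23 and 6.41 CPM in wild type, 6.87, 5.90 and 3.82 in weak CKO and 5.31, 6.35 and 6.75 in strong CKO. Mmp12, the macrophage elastase, had 0.209, 0.355 and 0.404 CPM in wild type, 0.306, 0.328 and 0.501 in weak CKO and 0.301, 0.463 and 0.501 in strong CKO. It was not called, while 5 and 6 of 8 macrophage markers were called higher. Mmp12 had 30, 36 and 36 counts over the wild type, weak and strong CKO libraries, and log2 changes of 0.22 ± 0.38 and 0.38 ± 0.38. At this level a moderate rise could have gone uncalled, and the part of macrophages was not tested.

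The abundant Mmp genes showed no called change. Mmp2, which digests denatured collagen and collagen IV, measured 295, 188 and 302 CPM in wild type, 244, 251 and 264 CPM in weak CKO and 205, 230.3 and 258 CPM in strong CKO. WT_268_1 was the lowest of all 9 libraries, and the log2 changes were −0.05 ± 0.16 and −0.18 ± 0.16 (adjusted p = 0.878 and 0.460, edgeR). Without WT_268_1 the strong CKO change was called (−0.37). Mmp14, the membrane protease that activates Mmp2 together with Timp2, measured 241, 253 and 255 CPM in wild type, 260.5, 264 and 260.5 CPM in weak CKO and 309, 257 and 295 CPM in strong CKO. The CKO libraries lay just above wild type, with log2 changes of 0.07 ± 0.07 and 0.20 ± 0.07 (adjusted p = 0.597 and 0.0683, edgeR), the latter called without MUT_S_268_4 (0.28). Mmp11, a stromelysin of stromal cells, had 62.7, 52.9 and 56.2 CPM in wild type, 61.4, 61.8 and 53.9 CPM in weak CKO and 64.3, 58.8 and 62.9 CPM in strong CKO, ranges that overlapped. Mmp19, the most abundant in the group of Mmp19, Mmp21, Mmp27 and Mmp28, had 19.2, 15.8 and 15.98 CPM in wild type, 19.2, 15.7 and 17.0 in weak CKO and 18.1, 16.2 and 13.5 in strong CKO, with similar overlap.

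The other tested Mmp genes were Mmp9, Mmp15, Mmp16, Mmp17, Mmp23, Mmp25 and Mmp28. Their log2 changes ran from −0.17 (Mmp25) to 0.44 (Mmp17) in weak CKO and from −0.52 (Mmp25) to 0.47 (Mmp17) in strong CKO. Mmp28, found in epithelium and macrophages, came nearest to the threshold in strong CKO, where 3.91, 5.63 and 5.45 CPM lay below the 8.02, 6.23 and 6.87 CPM of wild type (log2 −0.49 ± 0.17, adjusted p = 0.0533, edgeR), while weak CKO had 6.43, 6.77 and 7.51 CPM. It was called with DESeq2-type size factors in edgeR (−0.50) and in DESeq2 (−0.50), and under no other alternative. In strong CKO Mmp17 was called without MUT_S_860_3 (0.65) and Mmp23 without WT_549_2 (0.50).

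Of the 4 inhibitors, Timp3 alone was called, in strong CKO only, and the difference between the CKO groups was not called (log2 −0.16). In strong CKO 25.6% of all tested genes were called. Timp3 (chr10:86300372-86349506) measured 820.4, 805 and 666 CPM in wild type, 711, 641 and 627 CPM in weak CKO and 526, 619 and 626 CPM in strong CKO. Strong CKO lay below every wild type library, with WT_549_2 the nearest, and weak CKO overlapped wild type. The log2 changes were −0.21 ± 0.10 (adjusted p = 0.215, edgeR) and −0.37 ± 0.10 (adjusted p = 0.0249), and the call ended without WT_265_1 (−0.32), WT_268_1 (−0.33) or MUT_S_265_5 (−0.29). Syn3, on the opposite strand, covers 21.3% of the Timp3 exons.

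Timp2 measured 219.9, 187 and 175 CPM in wild type, 209.7, 196 and 192 CPM in weak CKO and 213, 200.2 and 201 CPM in strong CKO. All CKO libraries fell within the wild type range, with log2 changes of 0.04 ± 0.08 and 0.08 ± 0.08 (adjusted p = 0.815 and 0.539, edgeR). Timp1, an inhibitor induced by injury and cytokines, had 4.39, 3.71 and 5.19 CPM in wild type, 4.36, 5.04 and 5.64 CPM in weak CKO and 8.09, 5.67 and 5.28 CPM in strong CKO. Strong CKO lay above wild type, by little in MUT_S_860_3, and was not called (log2 0.52 ± 0.20, adjusted p = 0.0843, edgeR). Timp4 had 3.277, 3.195 and 2.05 CPM in wild type, 2.42, 1.79 and 2.44 CPM in weak CKO and 1.73, 2.25 and 1.70 CPM in strong CKO (log2 −0.36 ± 0.23 and −0.58 ± 0.24, adjusted p = 0.354 and 0.0971, edgeR). Without WT_549_2 the strong CKO value was called (−0.77).

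Among 9 somatic Adam genes with protease activity, Adam8 was called higher in strong CKO and none in weak CKO. Of all tested genes, 14.6% were called higher in strong CKO and 9.09% in weak CKO. Adam8 (chr7:139978932-139992562), a protease of myeloid cells, measured 10.8, 8.23 and 8.02 CPM in wild type, 17.9, 12.6 and 10.7 CPM in weak CKO and 22.3, 15.4 and 18.3 CPM in strong CKO. Strong CKO was above all wild type libraries, and MUT_W_549_3 reached down to WT_265_1. The log2 change was 0.61 ± 0.21 in weak CKO (adjusted p = 0.0827, edgeR; called without MUT_W_549_3, 0.76) and 1.05 ± 0.21 in strong CKO (adjusted p = 0.00556), or 0.44 on the log2(RPKM + 1) scale. Macrophage markers were also higher in both CKO groups, from at most 242 CPM summed in wild type to at least 300 CPM. Neutrophil markers, also of myeloid cells, were not. They summed to 24.0 to 65.3 CPM in wild type, 18.3 to 32.1 in weak CKO and 17.95 to 29.7 in strong CKO. Of 7 tested, 0 were called higher and 1 lower in each comparison. The part of either cell type in the Adam8 result was not tested.

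Adam28, a sheddase described in lymphocytes and epithelium, had a larger fitted change but a wide spread, with 7.15, 4.03 and 3.89 CPM in wild type, 15.6, 6.32 and 10.52 CPM in weak CKO and 14.7, 6.81 and 12.7 CPM in strong CKO. WT_265_1 exceeded both MUT_W_268_3 and MUT_S_268_4. Its log2 changes of 1.11 ± 0.41 and 1.19 ± 0.41 were not called (adjusted p = 0.109 and 0.0629, edgeR). The strong CKO change was called without WT_265_1 (1.53), MUT_W_265_2 (1.19), MUT_W_268_3 (1.19) or MUT_S_268_4 (1.46), and both were called in DESeq2 (1.10 and 1.18).

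Adam10, the main sheddase of Notch receptors, measured 301, 308 and 286 CPM in wild type, 277, 282 and 290.0 CPM in weak CKO and 261, 296 and 276 CPM in strong CKO. Its log2 changes were −0.08 ± 0.06 and −0.10 ± 0.06 (adjusted p = 0.481 and 0.269, edgeR), and its groups overlapped. Adam17, which releases Tnf and Egf receptor ligands, had log2 changes of 0.06 ± 0.10 and −0.06 ± 0.10 (adjusted p = 0.738 and 0.691, edgeR). The other sheddases, Adam9, Adam12, Adam15, Adam19 and Adam33, ran from −0.30 to 0.12 in weak CKO and from −0.15 to 0.16 in strong CKO. Adam12 had the widest spread among the abundant members, 39.0, 87.1 and 78.0 CPM in wild type, and was called lower in weak CKO without WT_265_1 (−0.57). Of the 3 somatic Adam genes without a protease site, Adam22 was the most abundant, with 19.3, 20.4 and 15.8 CPM in wild type, 22.8, 21.9 and 18.53 in weak CKO and 20.2, 23.6 and 19.5 in strong CKO. It was not called (log2 0.19 ± 0.12 in both), nor were Adam11 and Adam23.

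Testis-type Adam genes were low throughout, and 7 of the 8 were tested. None was called higher and 1 was called lower in each comparison. Of all tested genes, 9.09% were called higher and 5.38% lower in weak CKO, and 14.6% and 11% in strong CKO. With 7 genes, these counts do not set the testis-type members apart from all genes. The germ cell markers Dazl, Ddx4, Sycp1, Mael and Tex101 were called higher in each, 5 of 5. Their summed level was 4.20 to 6.90 CPM in wild type, 186 to 313 CPM in weak CKO and 259.5 to 365 CPM in strong CKO. The highest level of any of the 7 in a single library was 5.38 CPM. The gene that fell, Adam1a (chr5:121518576-121545482), measured 4.71, 4.20 and 5.38 CPM in wild type, 3.03, 3.13 and 2.94 CPM in weak CKO and 3.09, 2.46 and 3.31 CPM in strong CKO (log2 −0.65 ± 0.17 and −0.69 ± 0.17, adjusted p = 0.0271 and 0.0128, edgeR). The weak CKO call ended without WT_549_2 (−0.55), MUT_W_265_2 (−0.65), MUT_W_268_3 (−0.67) or MUT_W_549_3 (−0.63), and on the log2(RPKM + 1) scale the values were −0.19 and −0.20. Same-strand gene models share its exons, Gm42878 over 63.7% and Mapkapk5 over 24.0% of them, so its count is uncertain. Adam5, the next in level, had 3.24, 1.84 and 1.74 CPM in wild type, 3.10, 2.44 and 3.13 CPM in weak CKO and 3.27, 2.99 and 2.17 CPM in strong CKO, and was not called (log2 0.35 and 0.31). Adam1b, Adam4, Adam7, Adam21 and Adam32 each measured at most 2.02 CPM, with log2 changes from −0.39 to 0.80 in weak CKO and from −0.41 to 0.69 in strong CKO.

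Between the CKO groups, 0 of the 55 tested members were called by edgeR, which called 1 of all 19374 genes, or 0.00516%. DESeq2 also called 0 members. The smallest adjusted p of a member was 0.873. At an unadjusted p under 0.05 there were 4, all lower in strong than in weak CKO: Adamts17 (log2 −0.56 ± 0.21), Mmp28 (−0.47 ± 0.17), Adamts1 (−0.44 ± 0.14) and Adamts9 (−0.25 ± 0.08). Among all 19374 tested genes 1098 passed that limit, so 4 of 55 members is near the share of all genes. The further drop of these 4 members in strong CKO is therefore not established by these 6 libraries.

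A list of 35 genes that activate, anchor or restrain these proteases, none of them a member, gave 33 tested genes, and Plg and Tll2 are not analysed here. In weak CKO 5 were higher and 5 lower, where 9.09% and 5.38% of all tested genes were, and in strong CKO 6 and 7, where 14.6% and 11% of all tested genes were. The weak CKO counts fell to 1 and 1 without MUT_W_265_2 and to 3 and 1 without MUT_W_268_3. Calls among all genes fell as well, from 1761 higher and 1042 lower to 1013 and 419, and to 966 and 344. The list median was −0.14 and −0.28. The 6 called genes with the smallest adjusted p belonged mainly to the plasminogen system, which activates Mmp precursors, and to membrane partners of the proteases.

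Serpine2, an inhibitor of plasminogen activators and thrombin, measured 187, 206 and 203 CPM in wild type, 327, 366 and 298 CPM in weak CKO and 360.3, 315 and 353 CPM in strong CKO. It rose by log2 0.73 ± 0.09 and 0.79 ± 0.09 (adjusted p = 0.000475 and 0.000203, edgeR), with all CKO libraries above all wild type libraries. Plat, the tissue plasminogen activator, rose from 16.6, 19.5 and 15.6 CPM to 23.6, 26.2 and 20.4 CPM in weak and 33.8, 28.8 and 25.6 CPM in strong CKO (log2 0.44 ± 0.13 and 0.77 ± 0.13, adjusted p = 0.0481 and 0.00226, edgeR). Its weak CKO call ended without WT_265_1 (0.42), WT_549_2 (0.37), MUT_W_265_2 (0.44), MUT_W_268_3 (0.36) or MUT_S_268_4 (0.44). Plaur, the urokinase receptor, fell from 22.5, 21.1 and 22.5 CPM to 14.02, 15.4 and 15.0 CPM in weak and 15.1, 15.6 and 14.6 CPM in strong CKO (log2 −0.57 ± 0.08 and −0.54 ± 0.08, adjusted p = 0.00101 and 0.000879, edgeR).

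Reck, a membrane-anchored inhibitor of Mmp enzymes, measured 82.3, 88.8 and 78.3 CPM in wild type, 62.4, 64.6 and 68.7 CPM in weak CKO and 56.9, 64.7 and 58.2 CPM in strong CKO. It fell by 0.35 ± 0.07 and 0.47 ± 0.07 on the log2 scale (adjusted p = 0.0120 and 0.00148, edgeR), and the weak CKO call ended without MUT_W_265_2 (−0.32) or MUT_W_268_3 (−0.34). Tspan15, a tetraspanin partner of Adam10, measured 206, 212 and 198 CPM in wild type, 159, 155 and 177 CPM in weak CKO and 140.2, 163 and 141 CPM in strong CKO. Its log2 changes were −0.33 ± 0.08 and −0.47 ± 0.08 (adjusted p = 0.0187 and 0.00173, edgeR), the former not called without WT_268_1 (−0.30), MUT_W_265_2 (−0.31) or MUT_W_268_3 (−0.29). Spock3, a matrix proteoglycan of the testican family, was low and rose from 0.906, 0.613 and 0.342 CPM to 2.21, 1.31 and 1.57 CPM in weak and 2.71, 2.78 and 2.41 CPM in strong CKO (log2 1.45 ± 0.33 and 2.09 ± 0.33, adjusted p = 0.0169 and 0.00148, edgeR). Its weak CKO call ended without MUT_W_265_2 (1.22), and on the log2(RPKM + 1) scale its changes were 0.09 and 0.16.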

How the data were processed

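RNA from 9 whole lungs was sequenced as single 75 nt reads. The table used holds unnormalised counts that the authors deposited for each library, RPKM values per the file headers, and a gene length deposited by the authors, in bases. This length equals the exon length summed over all transcripts for 95.2% of genes (within 1%), so levels between genes were compared per kilobase of merged GENCODE M21 exons. The submitters' processing notes name the genome GRCm38.p6, the aligner STAR, Trimmomatic 0.36 and cutadapt 2.5, with FastQC 0.11.8 and edgeR 3.28.1. How reads were counted, with which annotation and strand setting, is not stated in the sources used.

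Counts were tested with edgeR 4.0.16 in R 4.3.3, with TMM factors (0.939 to 1.04), filterByExpr by group, 1 mean per group over all 9 libraries, a robust quasi-likelihood fit and two-sided tests. Adjustment was by Benjamini-Hochberg over 19374 genes, with a threshold of 0.05. Standard errors derive from the log2 change and its F statistic. The procedure was tested on simulated data. Alternatives were DESeq2 1.42.0, limma 3.58.1 on log2(RPKM + 1) and log2(RPKM + 0.1), other size factors, no filter, only the groups compared, a replicate block and leaving out each library.

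Members were taken by symbol alone, while their roles, the other lists and the tests were chosen with earlier results of these data known. Values in every library are given for all Timp genes, for members called in a comparison with a mean of at least 1 CPM, for the most abundant member of each role and for the 6 listed activators or regulators with the smallest adjusted p; other members whose values are given were picked after their values were seen. The labels do not state that lungs came from separate litters, so the tests speak for the variation among these samples, which may be partly technical. Sequences are from the RefSeq promoter table of GRCm38.p6.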

Additional observations from a re-analysis of the deposited data

How the results depend on the processing

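Over 18 alternatives no called member changed sign. Of 16 called in weak CKO, 9 stayed called throughout (Mmp3, Adamts4, Adamts9, Adamts10, Adamts12, Adamts13, Adamts15, Adamts17 and Adamts20), and of 18 in strong CKO 14 did, all but Timp3, Adamts3, Adamts6 and Adamts18. Matrix-acting members lower in weak CKO numbered 9 and became 5 with limma on log2(RPKM + 1) or log2(RPKM + 0.1) and with only the groups compared, and 5 to 9 when leaving out 1 library. Lower testis-type members in weak CKO numbered 0 to 1 without 1 library. Higher activators and regulators in weak CKO numbered 5, but 1 with log2(RPKM + 1), 2 with log2(RPKM + 0.1), 3 with only the groups compared and 1 to 5 without 1 library, and lower ones 1 to 6. With log2(RPKM + 1), log2(RPKM + 0.1) and only the groups compared, 1405, 1581 and 1288 of all genes were higher in weak CKO. Lower in weak CKO were 809, 821 and 766. For Dnmt1, weak CKO became called in DESeq2 (−0.52) and with the replicate block (−0.50), and ran from −0.65 to −0.34 without 1 library, called without WT_265_1 (−0.65) or MUT_W_549_3 (−0.63). Strong CKO lost its call with upper quartile factors (−0.51), no filter (−0.52), log2(RPKM + 1) (−0.38), log2(RPKM + 0.1) (−0.49) and only the groups compared (−0.53), and ran from −0.67 to −0.36 without 1 library. All genes called in weak CKO, 1761 higher and 1042 lower, fell to 966 and 344 without MUT_W_268_3, 1013 and 419 without MUT_W_265_2, and 1155 and 611 without WT_549_2, and the 2139 lower in strong CKO fell to 1164 without MUT_S_265_5 and 1376 without MUT_S_860_3. The cause was not tested. Library numbers were not shown to pair the samples in every case. Deviations of same-numbered libraries correlated at 0.299, −0.0869 and 0.346 (wild type and weak CKO), 0.112 and 0.083 (wild type and strong CKO) and 0.169 and −0.000546 (weak and strong CKO). WT_265_1 with MUT_W_549_3 gave −0.338, and WT_549_2 with MUT_W_265_2 gave −0.38. Among weak CKO libraries WT_265_1 and WT_549_2 correlated best with their own number, and WT_268_1 with another number. Among strong CKO libraries WT_265_1 and WT_268_1 correlated best with their own. The main model does not use the number. With the number as a replicate block, 8 matrix-acting members were higher and 10 lower in weak CKO, beside 2402 and 1524 of all genes, and 10 and 10 in strong CKO, beside 2575 and 1875. Number 860 occurs in MUT_S_860_3 alone, so with the block this library adds nothing to the strong CKO change. The blocked strong CKO results therefore rest on MUT_S_265_5 and MUT_S_268_4 only. The block added calls for Adam8 (0.59), Adam28 (1.08) and Adamts14 (−0.27) in weak CKO and for Timp1 (0.74), Mmp23 (0.54) and Adam28 (0.998) in strong CKO. Mmp3 rests on few wild type counts, and its fold is limited by depth.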
